A study of Mus musculus with 3186 samples.

Results

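Vascular smooth muscle cells of the mouse brain that carried elastin transcripts were compared with smooth muscle cells in which no elastin read was found. Members were chosen among the 1484 single cells of the mural reporter line: those with at least 10000 CPM (reads of a gene per 1000000 gene reads of the cell) of Acta2, the smooth muscle alpha-actin, and under 1000 CPM of the endothelial gene Cldn5. Of the resulting 181 Acta2-rich cells, 67 had at least 20 CPM of Eln, the elastin gene, and are called Eln-positive; 104 had no Eln read and are called Eln-negative. The other 10 held Eln reads under the bound and lie between the sides. The comparison thus used 171 of 1484 mural cells and of the 3186 cells of the series.

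All cells of both sides came from brains of adult C57BL/6 mice, 12 to 15 weeks old, of genotype Pdgfrb(BAC)eGFP/NG2dsRed, in which mural cells carry both reporters while each reporter alone also marks other cells. No treatment is named. Cells were sorted by fluorescence into 384-well plates, Mural3, Mural4, Mural5 and Mural6, and 1 full-length Smart-seq2 library was made per cell. The labels name no animals, so all cells of the mural line count as 1 sample. There is therefore no test of any difference here, and levels, ratios and plate ranges are given as descriptions; intervals are exact 95% intervals that cover counting error only, since reads without molecular tags are not independent molecules.

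Elastin is secreted as a soluble precursor, tropoelastin, which is laid down on microfibrils and cross-linked by lysyl oxidases into elastic fibres that let large vessels recoil. Smooth muscle of the arterial wall is a main source of it, and elastic layers thin out as arteries branch into arterioles. Smooth muscle tone rests on actin and myosin, on calcium entering through channels or leaving internal stores, and on receptors for vasoconstrictors and vasodilators. Pericytes, the other mural cell of the brain, sit on capillaries and share some of these genes.

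The Eln gene lies at chr5:134702593-134747323 on the minus strand of mm10. Its levels chose the sides and are given only as a description. In Eln-positive cells Eln ran from 25.3 to 1120 CPM with a median of 193 CPM. The members nearest inside the bound had 25.3, 31.9 and 38.5 CPM, from 7, 13 and 18 reads. The nearest cells outside had 16.8, 8.75 and 8.57 CPM, from 7, 4 and 4 reads, and the lowest of the 10 had 2.02 CPM from 1 read. Few cells lay near the bound. The Cldn5 bound removed 0 of the Acta2-rich cells, and the highest Cldn5 level was 5.38 CPM in Eln-positive and 39.3 CPM in Eln-negative cells.

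Depth was alike on both sides. Reads in genes per cell ran from 166721 to 566883 with a median of 382967 in Eln-positive cells, and from 147413 to 550389 with a median of 371296 in Eln-negative cells. A median of 3029 genes had a read in Eln-positive and 2844 in Eln-negative cells. In Eln-negative cells the level that 0 reads allow by counting error alone (3 reads of the cell's total) ran from 5.45 to 20.4 CPM with a median of 8.08 CPM. Transcripts lost before sequencing are not covered, so a higher Eln level in such a cell is not excluded. Under 150000 reads, the depth at which 3 reads are 20 CPM, was 1 of the 104 cells. All 4 plates held both sides: Eln-positive cells were 13 of the gate on Mural3, 13 on Mural4, 19 on Mural5 and 22 on Mural6, against 25, 32, 25 and 22 Eln-negative cells. Eln-positive cells thus made up 30.2%, 28.9%, 41.3% and 46.8% of the Acta2-rich cells of these plates. Plates cannot be matched to animals from the labels.

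Acta2, the other gene of the rule, differed between the sides in degree. Its level ran from 17148 to 57093 CPM with a median of 37195 CPM in Eln-positive cells, and from 10357 to 55750 CPM with a median of 23373 CPM in Eln-negative cells. The ranges overlapped widely, but 32 Eln-negative cells lay below the lowest Eln-positive cell. Within Acta2 of 20000 to 40000 CPM, a range chosen after seeing the data that holds 40 Eln-positive and 46 Eln-negative cells, list counts and the genes that fell under 2-fold are given after the lists.

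**Figure D1:**
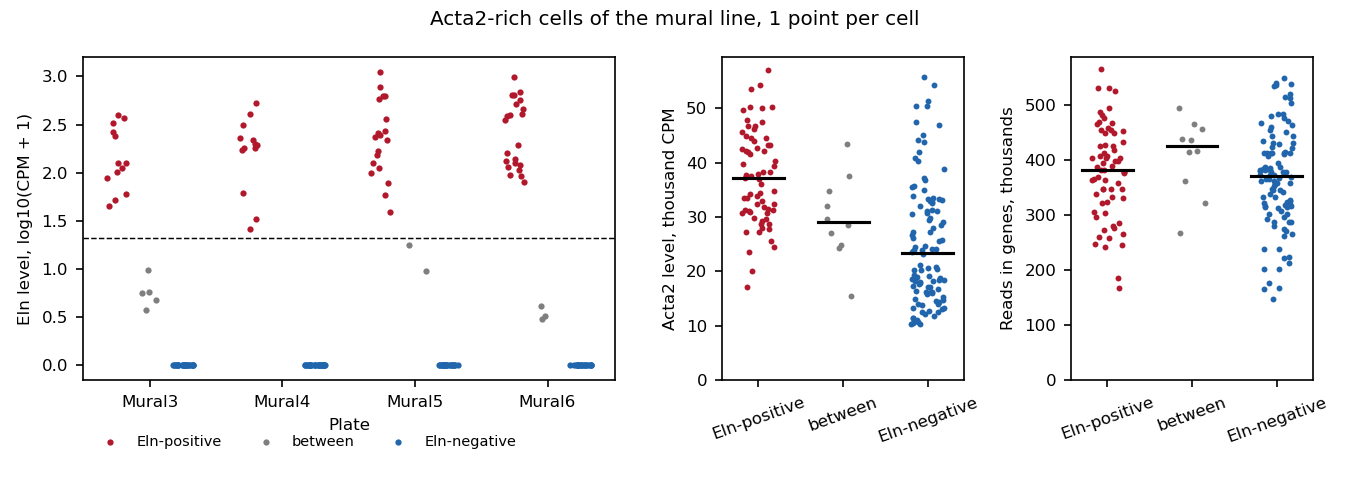
Eln level as log10(CPM + 1) by plate (left, dashed line at the bound of 20 CPM), Acta2 level in units of 1000 CPM (middle) and reads in genes in units of 1000 (right), with 1 point per Acta2-rich cell and black lines at the medians. Eln-positive and Eln-negative cells lie on all 4 plates at like depth, with median reads of 382967 and 371296, while median Acta2 is 37195 against 23373 CPM.

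Markers of smooth muscle were present throughout: the 8 markers summed to a pooled 41586 CPM on the Eln-positive side and 28403 CPM on the Eln-negative side, none of them at 0 on either. Markers of pericytes moved with the sides. Their 8 genes summed to a pooled 1357 CPM in Eln-positive and 5351 CPM in Eln-negative cells, with medians over cells of 278 and 2387 CPM and ranges of 32.2 to 25163 and 36.5 to 32404 CPM. At least 2000 CPM was reached in 5 Eln-positive cells (7.46%) and 58 Eln-negative cells (55.8%). The 8 markers were not alike: Vtn was at 737 and 3051 pooled CPM, Atp13a5 at 144 and 868, Higd1b at 94.0 and 406 and Ndufa4l2 at 37.1 and 241, whereas Kcnj8 and Abcc9, subunits of a potassium channel of pericytes, were at 91.2 and 42.5 CPM in Eln-positive against 40.6 and 7.76 CPM in Eln-negative cells. Without the cells at or over 2000 CPM, Kcnj8 was at 2.99 and 2.64 CPM and Abcc9 at 1.15 and 2.39 CPM. For comparison, pooled pericyte markers were at 27962 CPM in the 71 mural cells with Acta2 of 1000 to under 10000 CPM (Acta2-intermediate) and at 61172 CPM in the 1154 with Acta2 under 1000 CPM (Acta2-low). The part of the pericyte markers in the differences below was not tested. The cells under 2000 CPM, a setting chosen after seeing the data that leaves 62 Eln-positive and 46 Eln-negative cells, are called poor in pericyte markers, and each list is given in them beside its full count, with the genes described as 2-fold that fell under it.

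Other cell types left few pooled reads. Markers of at least 1 of them summed to 100 CPM or more in 12 Eln-positive and 20 Eln-negative cells. Endothelial markers summed to a pooled 11.2 CPM in Eln-positive and 8.67 CPM in Eln-negative cells, and fibroblast markers to 17.1 and 2.02 CPM, with Lum, Pdgfra, Col1a1, Dpt and Col15a1 at 0 on both sides. Microglia or macrophage markers summed to 211 CPM in Eln-positive cells of which 1 cell had 18015 CPM, against 4.93 CPM in Eln-negative cells. Oligodendrocyte markers were at 26.4 and 55.0 CPM, astrocyte markers at 0.157 and 16.9 CPM and neuron markers at 11.3 and 2.94 CPM. Of the erythroid markers 2 of 5 were found in the table, at 48.2 and 2.75 CPM. In Eln-positive cells these came from 1 cell at 3526 CPM, with 66 cells at 0. Neuron markers reached 610 CPM in the highest Eln-positive cell, with 64 at 0. Fibroblast markers reached 579 CPM in the highest Eln-positive cell, with 58 at 0. In Eln-negative cells astrocyte markers reached 1482 CPM in the highest cell, with 95 at 0, and oligodendrocyte markers 859 CPM, with 84 at 0.

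Counts were summed over the cells of each side and scaled to pooled CPM. Levels were compared as the log2 ratio of pooled CPM plus 1, Eln-positive over Eln-negative, for the 10570 genes with at least 5 pooled CPM on either side. At least 2-fold higher in Eln-positive cells were 1203 genes, 11.4% of those counted, and at least 2-fold lower were 1799 genes, 17.0%. The median log2 ratio was -0.11. Counts that also required the same direction on every plate came to 352 higher genes, 3.33%, and 681 lower genes, 6.44%. Since sides and genes came from the same cells, these counts are background, and the members' counts below are to be set beside them. Among cells poor in pericyte markers 16.3% were higher and 16.1% lower, and within the common Acta2 range 17.5% and 20.0%, with fewer cells in each.

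Genes were then named by size: the 12 largest log2 ratios in each direction among genes with at least 50 pooled CPM and reads in 25% of cells on the higher side, and at least 2-fold the same way on each of the 4 plates. Of the genes counted, 41 higher and 64 lower met this rule, so agreement between plates in these genes follows from the choice. Plate levels of the sides that do not overlap, described below, are favoured by it too. Thbs1, Ryr2, Olfr558, Tbx2 and Zfp36, described with their lists, also met the rule, while Rgs4 did not. The share of all genes whose plate levels do not overlap was not counted, so such a gap is a description only.

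Cnn1, calponin 1, which binds actin and slows the actomyosin ATPase (chr9:22099216-22109630, plus strand), was read in most Eln-positive cells. It ran from 0 to 3259 CPM with a median of 809 CPM over Eln-positive cells, and from 0 to 2684 CPM with a median of 0 over Eln-negative cells. By plate its pooled level was 923, 1317, 941 and 728 CPM on the Eln-positive side of Mural3 to Mural6 and 138, 168, 17.2 and 158 CPM on the Eln-negative side. Each plate's Eln-positive level was above every Eln-negative one, although single cells of the sides overlapped. Pooled levels were 931 CPM (919 to 943) and 118 CPM (114 to 121), a log2 ratio of 2.97, and 61 of 67 against 24 of 104 cells had a read. Cnn1 was close to absent elsewhere in the line, at 0.176 CPM in Acta2-intermediate and 0.0997 CPM in Acta2-low cells. Without the cells rich in pericyte markers it stood at 944 and 262 CPM, a log2 ratio of 1.85.

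Id2, an inhibitor of basic helix-loop-helix transcription factors that is a known target of BMP signals (chr12:25093799-25097140, minus strand), had the largest log2 ratio of the named higher genes. It was at a pooled 382, 318, 135 and 206 CPM in Eln-positive cells of Mural3 to Mural6, and at 0.259, 16.4, 0 and 0 CPM in Eln-negative cells. Reads were found in 32 of 67 Eln-positive and 5 of 104 Eln-negative cells, so that the median cell was at 0 on both sides, and the highest cells had 2173 and 227 CPM. The pooled levels of 235 CPM (229 to 241) and 4.87 CPM gave a log2 ratio of 5.33, and 5.03 without the cells rich in pericyte markers.

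Igfbp4, which binds insulin-like growth factors outside the cell (chr11:99041244-99054392, plus strand), had a median of 519 CPM and a highest cell of 2400 CPM in Eln-positive cells, against a median of 0 and a highest cell of 1235 CPM in Eln-negative cells. Its pooled plate levels were 480, 531, 664 and 613 CPM in Eln-positive and 75.1, 74.9, 44.7 and 122 CPM in Eln-negative cells, and the 2 sets did not overlap. The log2 ratio was 2.92, and 1.93 without the cells rich in pericyte markers.

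Kcnma1, the pore of the large-conductance calcium-activated potassium channel that opposes constriction (chr14:23289431-24014491, minus strand), was at 160, 73.9, 151 and 90.4 CPM in Eln-positive cells of the plates and at 1.43, 10.2, 7.84 and 28.7 CPM in Eln-negative cells. A read was seen in 46.3% of Eln-positive and 14.4% of Eln-negative cells, the highest cells had 1496 and 591 CPM, and the pooled levels of 119 and 12.0 CPM gave a log2 ratio of 3.21. Its subunit Kcnmb1, which tunes the channel to calcium in smooth muscle, had pooled levels of 375 and 418 CPM, a log2 ratio of -0.16.

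Among the other named higher genes were 2 fibrillar collagens, Col5a1 and Col3a1, with pooled levels of 69.1 and 134 CPM in Eln-positive and 4.19 and 12.8 CPM in Eln-negative cells. Fhl1, a LIM-domain protein of muscle, had 239 and 26.3 CPM, a log2 ratio of 3.13, with reads in 33 of 67 and 7 of 104 cells. Plin4, which coats lipid droplets, had 162 and 13.4 CPM, and Arhgap12, which switches off small GTPases, had 114 and 7.97 CPM. Lphn2, an adhesion receptor now called Adgrl2, had 266 and 47.2 CPM. The log2 ratios of Spsb1, a substrate adaptor of a ubiquitin ligase, and of 5930403L14Rik were 2.69 and 2.76. Except for Cnn1 and Igfbp4, the named higher genes had a read in at most 64.2% of Eln-positive cells.

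Rgs5, a regulator that shortens G protein signals and is a common mural marker (chr1:169655501-169695813, plus strand), was the most abundant of the named lower genes. It ran from 0 to 7183 CPM with a median of 18.0 CPM in Eln-positive cells, and from 0 to 14689 CPM with a median of 1587 CPM in Eln-negative cells. By plate it was at 355, 105, 583 and 267 pooled CPM in Eln-positive cells and at 1880, 1812, 3896 and 2092 CPM in Eln-negative cells, with no overlap between the sets. Pooled levels were 352 and 2468 CPM, a log2 ratio of -2.81, and -1.56 without the cells rich in pericyte markers. In Acta2-low cells Rgs5 was at 4085 CPM.

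Ano1, a calcium-activated chloride channel whose opening depolarises smooth muscle (chr7:144588549-144751974, minus strand), had a median of 3.02 CPM and a highest cell of 2363 CPM in Eln-positive cells, against a median of 1313 CPM and a highest cell of 6564 CPM in Eln-negative cells. Its plate levels were 68.1, 202, 287 and 277 pooled CPM in Eln-positive and 1041, 1600, 2083 and 1595 CPM in Eln-negative cells. The Eln-negative plates were all higher. Reads were found in 62.7% of Eln-positive and 92.3% of Eln-negative cells, and the log2 ratio was -2.81, or -2.01 without the cells rich in pericyte markers. Unlike Rgs5, Ano1 was lower in Acta2-low cells, at 710 CPM, than in Eln-negative cells, at 1620 CPM.

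Col14a1, a collagen that associates with fibrils (chr15:55307750-55520803, plus strand), was at 0, 0, 17.7 and 11.1 CPM in Eln-positive cells of the plates and at 16.5, 123, 142 and 110 CPM in Eln-negative cells. On Mural3 the Eln-negative level lay under the highest Eln-positive plate, so the plate sets overlapped slightly. Reads were found in 3 of 67 and 30 of 104 cells. Pooled levels were 9.20 and 104 CPM, against 0.651 CPM in Acta2-low cells. Tmem255b, a membrane protein, was alike in pattern, with 5.03 and 75.0 CPM and 0.362 CPM in Acta2-low cells.

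The remaining named lower genes described here were all higher in Acta2-low than in Eln-negative cells. Art3, a surface ADP-ribosyltransferase homologue, was at 4.29, 172 and 1618 pooled CPM in Eln-positive, Eln-negative and Acta2-low cells. Car4, a membrane carbonic anhydrase, was at 43.6, 737 and 1815 CPM. Cpm, a carboxypeptidase, was at 4.84, 103 and 395 CPM, Ggt5, a gamma-glutamyltransferase, at 37.4, 302 and 901 CPM, and Tnfrsf21, a death receptor, at 9.24, 109 and 397 CPM. Pde4c, a cyclic AMP phosphodiesterase, and Col4a3, a basement membrane collagen chain, had log2 ratios of -3.15 and -3.40. Single cells weighed on the low side: the highest Eln-positive cell held 74.3% of the Art3 reads of that side.

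**Figure D2:**
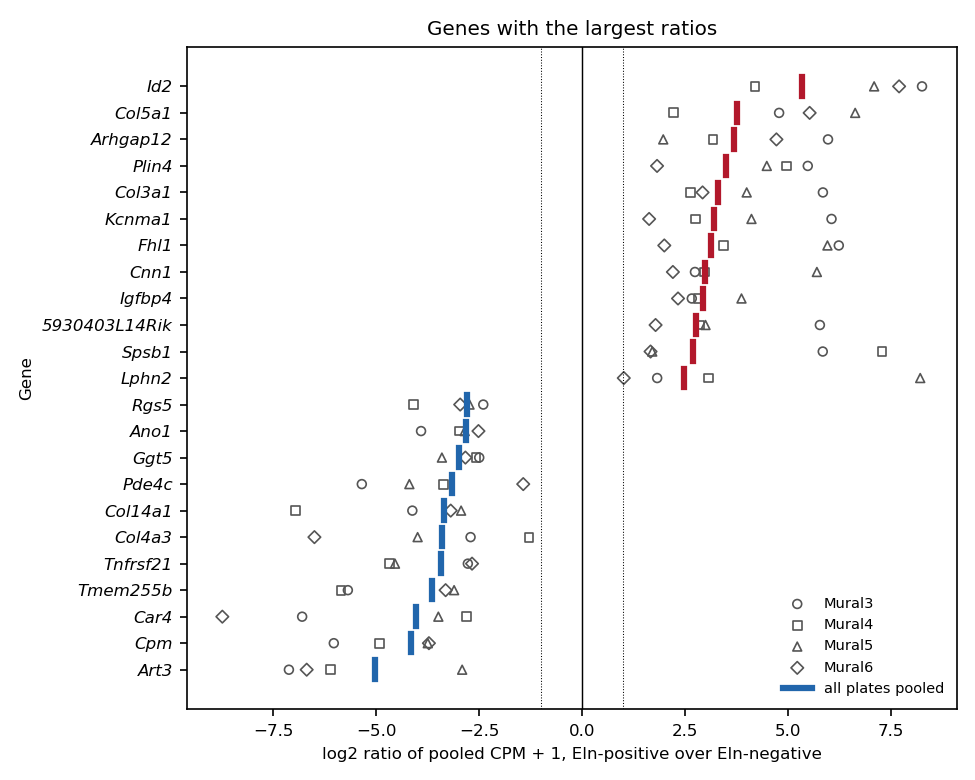
Log2 ratio of pooled CPM + 1, Eln-positive over Eln-negative, for the 12 higher and 11 of the 12 lower genes of the naming rule; open symbols are the 4 plates, bars the pooled value, dotted lines 2-fold. All plates lie past 2-fold on the same side by choice, with pooled values from 2.47 to 5.33 for the higher and from -2.81 to -5.03 for the lower genes.

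Cells were also read one by one. Each was thinned to 100000 reads, which left out 0 cells, and the named genes with a read were counted. Of the 12 higher genes, Eln-positive cells had 1 to 10 with a median of 6, Eln-negative cells 0 to 6 with a median of 1, and 48 Eln-negative cells had none. Of the 12 lower genes, Eln-positive cells had 0 to 10 with a median of 2 and Eln-negative cells 0 to 11 with a median of 5. More higher than lower genes were read in 56 of 67 Eln-positive cells and in 9 of 104 Eln-negative cells, while more lower genes were read in 5 and 90. These genes were chosen on the same cells. The 10 cells between the bounds, which did not enter the choice, split into 4 with more higher genes, 1 equal and 5 with more lower genes.

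**Figure D3:**
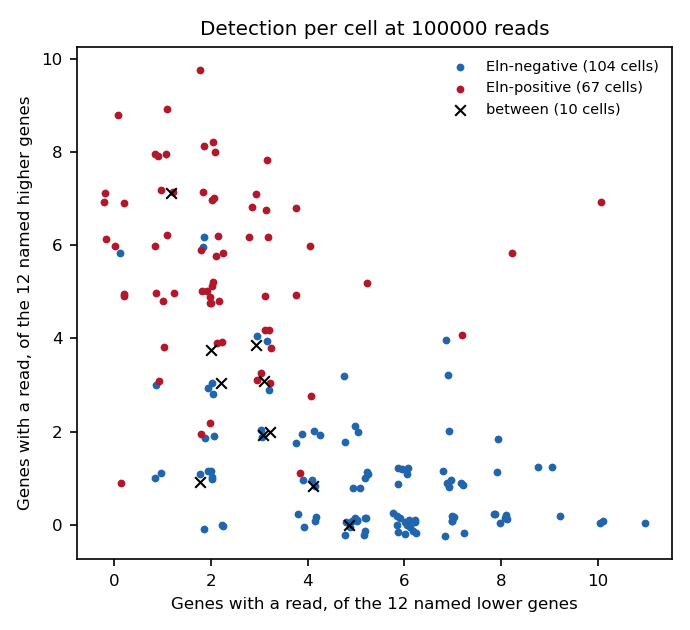
Named higher genes with a read (vertical axis, of 12) against named lower genes with a read (horizontal axis, of 12) in each cell at 100000 reads, with points shifted slightly at random so that equal counts show. Eln-positive cells lie at the upper left with medians of 6 and 2, Eln-negative cells at the lower right with medians of 1 and 5, and the 10 cells between the bounds lie among both.

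Genes that build elastic fibres had members in both directions. Of the 25 listed genes 13 reached 5 pooled CPM on either side. At least 2-fold higher were 2 of these and 3 were lower, beside 11.4% and 17.0% of all genes counted. The list's median was -0.66 against -0.11 over all genes counted. Leaving out 1 plate gave medians from -0.77 (without Mural5) to -0.23 (without Mural6). Within single plates the median ran from -0.77 to 0.38, so its sign differed between plates. Only 1 of the higher and 1 of the lower genes kept their direction on every plate. Among cells poor in pericyte markers 1 of 14 was higher and 4 were lower, with a median of -0.35. The higher ones were Emilin1, a glycoprotein of the elastin and microfibril interface, at 176 and 83.9 pooled CPM but with a log2 ratio of 0.37 in cells poor in pericyte markers, and Loxl1, a lysyl oxidase that cross-links elastin, at 13.6 and 0.577 CPM with reads in 11.9% and 1.92% of cells. Lox, the founding member of that enzyme family, was at 112 and 97.8 CPM, and Ltbp1, which tethers latent TGF-beta to microfibrils, at 703 and 713 CPM. Efemp2, which docks lysyl oxidase onto tropoelastin, was at 189 and 264 CPM. The lower ones were Ltbp4 at 32.0 and 90.0 CPM, Fbn1, the main microfibril protein, at 4.56 and 19.1 CPM with reads in 1 and 3 cells, and Emilin2 at 0 and 8.83 CPM. Fbln5, Fbln2, Mfap4 and Mfap5 had 0 reads on both sides. By counting error alone this allows up to 0.118 pooled CPM in Eln-positive and 0.0786 pooled CPM in Eln-negative cells (3 reads of each side's total). These 4 genes were chosen after their values were seen.

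Collagens and other matrix genes differed by family. Fibrillar and associated collagens had 5 of 11 counted genes higher and 2 lower, and their log2 ratios had a median of 0.65: beside Col5a1 and Col3a1, Col5a2 was at 50.8 and 17.5 pooled CPM and Col8a1 at 17.1 and 3.49 CPM, and Col6a1 rested on 3 and 1 cells with a read. Col1a2, a chain of type I collagen, was at 242 and 154 CPM, a log2 ratio of 0.65. The list's median was 0.02 without plate Mural6 and 1.02 without Mural5. Of the calls, 3 higher and 1 lower kept their direction on every plate. In cells poor in pericyte markers 6 were higher and 3 lower, with a median of 1.21, and Col5a2 had a log2 ratio of 0.58. Basement membrane genes had 2 of 17 higher and 6 lower, with a median of -0.39, which was -0.11 without Mural6 and -0.61 without Mural4. Of these calls, 2 higher and 4 lower kept their direction on every plate. Col18a1, whose end fragment is endostatin, was higher, at 410 and 118 CPM with reads in 56 of 67 and 46 of 104 cells, and so was Hspg2, perlecan, at 217 and 101 CPM. Lower were the laminin chains Lama2 at 20.1 and 88.2 CPM, Lamc3 at 24.0 and 173 CPM and Lamb1 at 2.32 and 13.2 CPM, the nidogens Nid1 and Nid2 and the heparan sulphate proteoglycan Agrn at 150 and 314 CPM. Without the cells rich in pericyte markers this list held 0 higher and 2 lower genes with a median of -0.08, and log2 ratios were 0.89 for Col18a1, 0.25 for Hspg2, -0.22 for Nid1, -0.82 for Nid2 and -0.98 for Agrn.

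Proteoglycans and matricellular proteins had 7 of 16 higher and 2 lower, with a median of 0.51, which was 0.93 without Mural4 and 0.86 without Mural6. Only 2 of the higher and 0 of the lower genes kept their direction on every plate. Cells poor in pericyte markers had 5 of 15 higher and 1 lower, with a median of 0.25. Thbs1, thrombospondin 1, which can activate latent TGF-beta, was at 308, 515, 722 and 273 CPM in Eln-positive and at 153, 157, 1.61 and 93.1 CPM in Eln-negative cells of the 4 plates, without overlap, but with reads in 46.3% and 19.2% of cells. Fmod, fibromodulin, was at 179 and 65.3 pooled CPM with reads in 28.4% and 10.6% of cells, Aspn, asporin, at 1077 and 661 CPM and Bgn, biglycan, at 1313 and 1055 CPM. Matrix proteases and their inhibitors had 7 of 18 higher and 1 lower, with a median of 0.63, and 6 of the 7 were higher on every plate. The median was 0.36 without Mural5. Cells poor in pericyte markers had 6 of 17 higher and 1 lower, with a median of 0.31, and Adamts1 had a log2 ratio of 0.73. Adamts1, which cuts versican, was at 1240 and 580 CPM over all cells, Adamts5, an aggrecanase, at 117 and 22.1 CPM, Timp4 at 59.5 and 7.91 CPM with reads in 10 and 2 cells, and Timp3, an inhibitor bound to the matrix, at 2081 and 2111 CPM.

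All 36 listed genes of the contractile apparatus were counted, and 7 were at least 2-fold higher, 2 lower and 27 within 2-fold. The list's median was 0.54. The range of the list's median over plates was 0.39 to 0.69. Besides Cnn1, the higher genes were Actg2, the gamma actin of visceral muscle, at 127 and 11.8 pooled CPM with reads in 16 and 7 cells, Sorbs2, which anchors actin to adhesions, at 2458 and 1096 CPM, Csrp1, a LIM protein of smooth muscle, at 4042 and 1843 CPM, Synpo2 at 560 and 265 CPM, Ppp1r14a, which inhibits myosin phosphatase, at 143 and 68.2 CPM, and Synm at 443 and 217 CPM. All 7 were higher on each plate. Csrp1 ran from 1119.8 to 7917 CPM over Eln-positive cells with a median of 4080 CPM, and from 0 to 10078 CPM over Eln-negative cells with a median of 1406 CPM. The core genes lay within 2-fold: Tagln at 6472 and 3824 CPM, Myh11 at 6994 and 4952 CPM and Myl9 at 17358 and 12893 CPM. Casq2, a calcium store protein, was lower, at 115 and 549 CPM, and was at 1891 CPM in Acta2-intermediate cells. The number of higher genes was 2 with an Acta2 bound of 20000 CPM, 2 within Acta2 of 20000 to 40000 CPM, 2 without plate Mural5 and 2 without the cells rich in pericyte markers. In the last setting the median was 0.31, and log2 ratios were 0.43 for Csrp1, 0.63 for Sorbs2, 0.54 for Synpo2, 0.70 for Ppp1r14a, 0.70 for Synm and 2.25 for Actg2. Casq2 was then at 110 and 166 CPM, a log2 ratio of -0.59.

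Channels and calcium handling leaned to the Eln-negative side: 6 of 39 counted genes were higher and 13 lower. On every plate 3 of the former were higher and 11 of the latter lower. The list had a median of -0.54 and a range over plates of -0.79 to -0.58. Ryr2, a calcium release channel of internal stores (chr13:11553102-12106945, minus strand), was higher. It was at 171, 347, 179.6 and 247 CPM in Eln-positive and 34.8, 63.6, 13.2 and 58.6 CPM in Eln-negative cells of the plates, without overlap, and in 70.1% and 21.2% of cells. Piezo1, a stretch-gated channel, was at 29.0 and 3.70 pooled CPM, but 1 cell held 93.6% of the Eln-negative reads. Lower were Atp2a3, a calcium pump of the stores, at 207 and 655 CPM, Gjc1, connexin 45, at 208 and 532 CPM, Trpm4, a sodium-permeable channel opened by calcium, at 38.2 and 115 CPM, Trpc6, a channel linked to stretch and receptors, at 7.75 and 80.5 CPM, and Slc8a1, the sodium-calcium exchanger, at 68.8 and 154 CPM. The voltage-gated calcium channel Cacna1c had 168 and 230 CPM and the pump Atp2a2 had 1003 and 1095 CPM, both within 2-fold. Without the cells rich in pericyte markers 5 of 37 genes were higher and 9 lower, with a median of -0.34, and log2 ratios were -0.70 for Atp2a3, -0.51 for Gjc1 and -0.19 for Slc8a1. The higher genes over all cells included Kcnj8 and Abcc9, also among the pericyte markers above, with log2 ratios of 1.15 and 2.31. In this setting these were 0.13 and -0.65, with both genes under 5 CPM on each side.

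Of 19 counted genes of nitric oxide and cyclic nucleotide signalling, 0 were higher and 6 were lower, all 6 on every plate, with a median of -0.29 that was -0.49 without Mural3. Rgs4, a relative of Rgs5, was read in every cell of both sides, with plate levels of 1595, 1681, 1636 and 2953 CPM in Eln-positive and 5599, 4653, 5305 and 5215 CPM in Eln-negative cells, and the sets did not overlap. Gucy1b3, the beta subunit of the nitric oxide receptor, was at 448 and 915 pooled CPM, while the alpha subunit Gucy1a3 was at 1029 and 1058 CPM. Pde4d, a cyclic AMP phosphodiesterase, was at 7.55 and 54.1 CPM. Without the cells rich in pericyte markers the list had 3 higher and 4 lower genes with a median of -0.15, Rgs4 had a log2 ratio of -1.14 and Gucy1b3 of -0.57.

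Vasoactive receptors and enzymes had 5 of 21 higher and 9 lower, with a median of -0.44. Of these calls, 1 higher and 8 lower kept their direction on every plate. Leaving out 1 plate gave medians from -0.88 (without Mural4) to -0.18 (without Mural5), with -0.70 without Mural6, and a minimum of 20 CPM gave -1.23. Cells poor in pericyte markers had 5 of 22 higher and 8 lower, with a median of -0.24. Olfr558, an odorant receptor gene expressed in vascular smooth muscle (chr7:102702215-102712064, plus strand), was at 62.4, 112, 299.8 and 129 CPM in Eln-positive and 1046, 646, 1112 and 854 CPM in Eln-negative cells of the plates. The sets did not overlap. Its median was 0 in Eln-positive and 672 CPM in Eln-negative cells, and 19 of 67 against 83 of 104 cells had a read. Its log2 ratio was -2.43, and -2.38 without the cells rich in pericyte markers; Acta2-low cells had 24.2 CPM. Olfr78, another receptor of that family, was at 272 and 623 CPM. Ednra, the endothelin receptor of smooth muscle, was at 257 and 619 CPM, F2r, the thrombin receptor, at 36.6 and 172 CPM, Tbxa2r, the thromboxane receptor, at 73.1 and 181 CPM, and Enpep, an aminopeptidase that trims angiotensin II, at 90.4 and 404 CPM. Higher was Ramp1, a subunit of the receptor for the dilator CGRP, at 446, 431, 392 and 413 CPM in Eln-positive and 223, 150, 108 and 204 CPM in Eln-negative cells of the plates. P2rx1, an ATP-gated channel, was at 172 and 50.3 pooled CPM with reads in 18 and 14 cells. In cells poor in pericyte markers Ramp1 had a log2 ratio of 0.92 and Ednra of -0.99.

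Transcription factors known in smooth muscle had 2 of 30 higher and 4 lower, with a median of -0.08. Of these calls, 2 higher and 3 lower kept their direction on every plate. Myocd, the coactivator that drives contractile genes, was at 114 and 152 pooled CPM, Srf, its DNA-binding partner, at 72.1 and 47.4 CPM and Mef2c at 496 and 970 CPM. Tbx2, a T-box repressor, was lower, at 100.1, 63.0, 177 and 131 CPM in Eln-positive and 232, 280.0, 432 and 397 CPM in Eln-negative cells of the plates, without overlap. Foxf2 and Foxd1 had log2 ratios of -1.56 and -1.44, and Klf4 was higher, at 125 and 52.4 CPM. In cells poor in pericyte markers 1 of 29 was higher and 1 lower, with a median of -0.11, and these 3 genes had log2 ratios of -0.94, -0.43 and 0.82. The list's median was -0.36 without Mural5 and 0.03 without Mural6.

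Signalling and adhesion lists had genes in both directions. TGF-beta and BMP genes had 7 of 31 higher and 3 lower, with a median of 0.27: beside Id2, Tgfb3 was at 653 and 308 pooled CPM and Bmp2 at 67.3 and 25.5 CPM, while Id1 and Id3 had log2 ratios of 0.36 and 0.62. The median was 0.17 without Mural5, and in cells poor in pericyte markers 7 were higher and 3 lower, with a median of 0.21 and a log2 ratio of 0.45 for Tgfb3. Growth factors and receptors had 5 of 26 higher and 1 lower, with a median of 0.26, whose sign rested on the plates: it was -0.18 without Mural5, with 6 higher and 4 lower, -0.02 without Mural3, with 8 higher and 2 lower, and 0.02 without Mural6, with 4 higher and 3 lower. It was 0.07 by the mean of CPM over cells and -0.04 in cells poor in pericyte markers, where Pdgfrb had a log2 ratio of -0.80. The lower gene over all cells was Pdgfrb, the receptor that recruits mural cells and whose promoter drives the eGFP reporter: it ran from 96.2 to 3864 CPM with a median of 601 CPM in Eln-positive cells and from 60.7 to 5170 CPM with a median of 1662 CPM in Eln-negative cells. The reporter itself was at 517 and 924 pooled CPM and had a read in every cell. Notch genes had 1 of 18 higher and 1 lower, with a median of -0.24 and Notch3, the main Notch receptor of vascular smooth muscle, at 682 and 1059 CPM. That median was 0.10 without Mural3 and 0.03 in cells poor in pericyte markers, where 1 was higher and 2 lower and Notch3 had a log2 ratio of 0.13. Wnt genes had 3 of 23 higher and 5 lower, with a median of 0.10 that was 0.28 without Mural4, -0.14 without Mural5 and -0.13 in cells poor in pericyte markers. Integrins and adhesion genes had 2 of 31 higher and 3 lower, with a median of 0.08 that was -0.03 without Mural6. The tetraspanin Cd9 was at 716 and 301 CPM in 97.0% and 59.6% of cells. In cells poor in pericyte markers 3 of 31 were higher and 1 lower, with a median of 0.02 and a log2 ratio of 0.59 for Cd9. Over all cells, 3 higher and 2 lower TGF-beta and BMP genes kept their direction on every plate. So did 2 and 1 growth factors and receptors, 0 and 1 Notch genes, 0 and 2 Wnt genes, and 1 and 1 integrins and adhesion genes.

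Energy metabolism was close to level. Oxidative phosphorylation had 0 of 27 genes higher and 1 lower, with a median of 0.07, the lower one being Cox4i2, a cytochrome oxidase subunit of hypoxic cells, at 76.8 and 174 CPM. In cells poor in pericyte markers 0 of 27 were 2-fold either way, and Cox4i2 had a log2 ratio of -0.65. Glycolysis and lactate genes had 2 of 18 higher and 1 lower, with a median of -0.11, which was 0.06 without Mural5 and -0.19 without Mural4. Of these calls, 1 higher and 0 lower kept their direction on every plate. In cells poor in pericyte markers 1 of 17 was higher and 0 lower.

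Immediate early and stress genes had the highest median of the 18 lists, 0.81: 14 of 32 genes were higher, 13 of them on every plate, and 2 lower. Zfp36, tristetraprolin, which hastens decay of inflammatory transcripts (chr7:28376784-28380253, minus strand), was at 2637, 2561, 3288 and 3165 CPM in Eln-positive and 1014, 873, 498 and 1501 CPM in Eln-negative cells of the plates, without overlap. Klf2, a factor induced by flow and stress, was at 709 and 225 pooled CPM, Socs3, a brake on cytokine signals, at 738 and 244 CPM, Gadd45b at 520 and 170 CPM, Egr1 at 1988 and 839 CPM and Atf3 at 3006 and 1403 CPM. Fos was at 11926 and 7866 CPM and Dusp1 at 2534 and 2614 CPM, both within 2-fold. Heat shock genes Hspa1a and Hspa1b, near-identical copies whose reads may be split, had log2 ratios of -0.30 and -0.56. Summed over the list, the median cell had 38696 CPM in Eln-positive and 8938 CPM in Eln-negative cells, and the ranges of 768 to 100777 and 334 to 98107 CPM overlapped almost throughout. The sides differed less on Mural3, where the medians were 58706 and 40679 CPM, than on Mural5, where they were 43652 and 4340 CPM. Without the cells rich in pericyte markers 5 genes of the list were higher, the list's median of 0.56 was below that of the fibrillar collagens, and the median sums were 42257 and 26950 CPM. Log2 ratios were then 0.81 for Zfp36, 0.82 for Socs3, 0.97 for Gadd45b, 0.70 for Egr1 and 0.56 for Atf3.

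**Figure D4:**
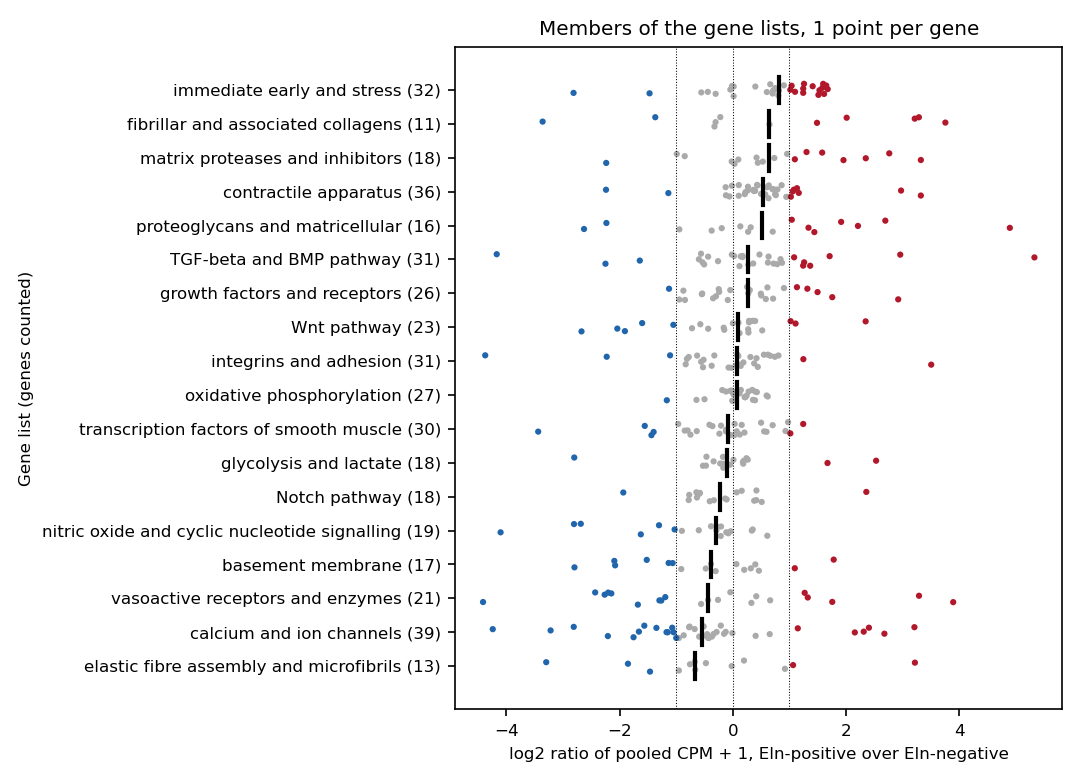
Log2 ratio of pooled CPM + 1, Eln-positive over Eln-negative, for each counted member of the 18 gene lists, with black bars at list medians, dotted lines at 2-fold and red or blue points past it. Medians run from -0.66 for elastic fibre genes to 0.81 for immediate early and stress genes, and every list has members on both sides of 0.

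Within the common Acta2 range the lists moved in part. Fibrillar collagens had 3 of 12 higher and 3 lower, with a median of 0.17, and Col5a2, Col8a1 and Col6a1 had log2 ratios of 0.76, 0.11 and -0.25. Basement membrane genes had 1 of 16 higher and 1 lower, with a median of -0.12, and log2 ratios were 0.78 for Hspg2, -0.75 for Lama2, -0.69 for Nid1, -0.72 for Nid2, -0.96 for Agrn and 1.10 for Lamb1, whose direction turned. Elastic fibre genes had 2 of 14 higher and 2 lower, with a median of -0.40, with Emilin1 at 0.54, Ltbp4 at -0.96 and Emilin2 at 0 reads on both sides. In the contractile list, with a median of 0.30, Csrp1, Sorbs2, Synpo2, Ppp1r14a and Synm had log2 ratios of 0.98, 0.64, 0.92, 0.65 and 1.00, the last just under 2-fold. Channels had 7 of 39 higher and 10 lower, with Atp2a3 at -0.95 and Slc8a1 at -0.33, and nitric oxide genes 1 of 17 higher and 4 lower, with Gucy1b3 at -0.96. Vasoactive genes had 2 of 21 higher and 10 lower, with a median of -0.45, Ramp1 at 0.58 and Tbxa2r at -0.35. Transcription factors had 5 of 30 higher and 6 lower, with Klf4 at 0.69. Wnt genes had 4 of 24 higher and 8 lower, with a median of -0.37, Notch genes 0 of 18 higher and 2 lower, with a median of 0.11, and integrins and adhesion genes 1 of 32 higher and 6 lower, with a median of -0.20. Growth factors and receptors had 7 of 27 higher and 2 lower, with Pdgfrb at -0.66, and TGF-beta and BMP genes 8 of 31 higher and 4 lower, with Bmp2 at 0.84. Cd9 had a log2 ratio of 0.98. Oxidative phosphorylation had 0 of 27 past 2-fold, with Cox4i2 at -0.62, and glycolysis 1 of 17 higher and 1 lower. Proteoglycans had 6 of 15 higher and 1 lower, matrix proteases 7 of 18 and 0, and immediate early and stress genes 13 of 30 and 1, with medians of 0.54, 0.36 and 0.80.

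The promoters of the genes named by size and of the contractile, channel and immediate early lists were searched, in RefSeq sequence of build GRCm38.p6, for the CArG box, the site bound by Srf in contractile and immediate early genes, on both strands over the 250 bases before the start. The box was present in 482 of 32851 promoter entries of all genes, 1.47%. A gene can have several entries and was counted if any held the box, so counts of genes and this share are not alike. The box was found in 1 of 11 named higher genes with an entry, in 0 of 8 named lower genes and in 1 of 34 channel genes. It was also found in 4 of 32 contractile genes with an entry (Myl9, Myl6, Vcl and Ldb3) and in 2 of 26 immediate early and stress genes (Egr2 and Zfp36). A match describes letters only. The 150 bases before the start are shown for Fhl1 and Zfp36, which were higher in Eln-positive cells, and for Trpc6 and Lama2, which were lower, with the CArG box in capitals. Lama2 is a basement membrane gene outside these sets, looked up with the genes named from the lists, and the 4 are shown since the box occurred in genes of both directions.
Fhl1, chrX:56779533-56779682 (plus strand): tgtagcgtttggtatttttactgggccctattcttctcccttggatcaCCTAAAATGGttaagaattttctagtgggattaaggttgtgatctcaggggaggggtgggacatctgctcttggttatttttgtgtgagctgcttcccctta
Zfp36, chr7:28379229-28379378 (minus strand): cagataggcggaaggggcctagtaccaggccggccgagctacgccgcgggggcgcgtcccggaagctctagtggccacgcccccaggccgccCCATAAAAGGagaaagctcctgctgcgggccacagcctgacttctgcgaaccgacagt
Trpc6, chr9:8543992-8544141 (plus strand): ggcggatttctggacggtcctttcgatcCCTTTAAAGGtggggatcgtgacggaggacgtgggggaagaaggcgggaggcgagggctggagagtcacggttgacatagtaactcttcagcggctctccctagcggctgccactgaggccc
Lama2, chr10:27616943-27617092 (minus strand): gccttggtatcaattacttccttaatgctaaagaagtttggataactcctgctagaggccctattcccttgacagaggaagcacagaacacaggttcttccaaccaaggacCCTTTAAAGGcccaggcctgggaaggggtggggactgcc

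In these 4 sequences the box began 102 bases before the start in Fhl1, 58 in Zfp36, 122 in Trpc6 and 39 in Lama2. The log2 ratios of the genes were 3.13, 1.68, -3.22 and -2.08. Fhl1 had 2 promoter entries, and only the one shown held the box. The sequences shown for Fhl1, Zfp36 and Lama2 lie inside the annotated genes, so their starts are not the outermost ones.

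The sides were set beside the other cells of the mural line. Of the 64 lower genes that met the naming rule, 35 (54.7%) were higher in Acta2-low than in Eln-negative cells and 29 were lower. By at least 2-fold, 25 of the 64 were higher and 12 lower. Over all 10570 genes counted 1703 were 2-fold higher and 1559 lower, and over all 1799 lower genes 279 and 406. The share of 54.7% without regard to size is close to the 53.2% over all 10570 genes counted, and it was 43.2% over all 1799 lower genes. The 2-fold counts of the 64 genes are not close to those over all genes. Among the genes lower in Acta2-low cells were Olfr558, Col14a1, Tmem255b, Thsd4, a thrombospondin-type protein of microfibrils, at 170 pooled CPM in Eln-negative and 5.06 CPM in Acta2-low cells, and Gpc1, a glypican, at 108 and 10.1 CPM. The level of Ackr3, a scavenger receptor for Cxcl12, was 322 CPM in Eln-positive, 1703 CPM in Eln-negative, 2933 CPM in Acta2-intermediate and 1133 CPM in Acta2-low cells. Of the 41 higher genes that met the rule, 29 (70.7%) were lower in Acta2-low than in Eln-negative cells, 23 of them by at least 2-fold. Of all 10570 genes counted 46.8% were lower, with 1559 by at least 2-fold. Of all 1203 higher genes 26.4% were lower, with 206 by at least 2-fold. The 41 and the 64 genes passed bounds of level and share of cells that the others did not, so these shares are not like for like. Crispld2, a secreted protein, was at 1099, 420, 96.6 and 35.4 CPM in these 4 classes in the same order, and Rrad, a GTPase that restrains calcium channels, at 1171, 268, 137 and 216 CPM. The 10 cells between the bounds, pooled, had 573 CPM of Cnn1, 193 CPM of Id2, 1143 CPM of Rgs5 and 543 CPM of Ano1, inside the range of the sides. Other named genes lay outside it: Kcnma1 was at 1.23 CPM, Col5a1 at 1.47 CPM and 5930403L14Rik at 0.245 CPM, under both sides. Inside were 9 of the 12 named higher and 6 of the 12 named lower genes, and 25 of the 41 and 33 of the 64 that met the rule. The counts were 274 of all 1203 higher genes, 420 of all 1799 lower genes and 1631 of all 10570 genes counted. Genes chosen for a wide gap between the sides hold other cells inside it more readily, so these counts do not place the 10 cells.

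**Figure D5:**
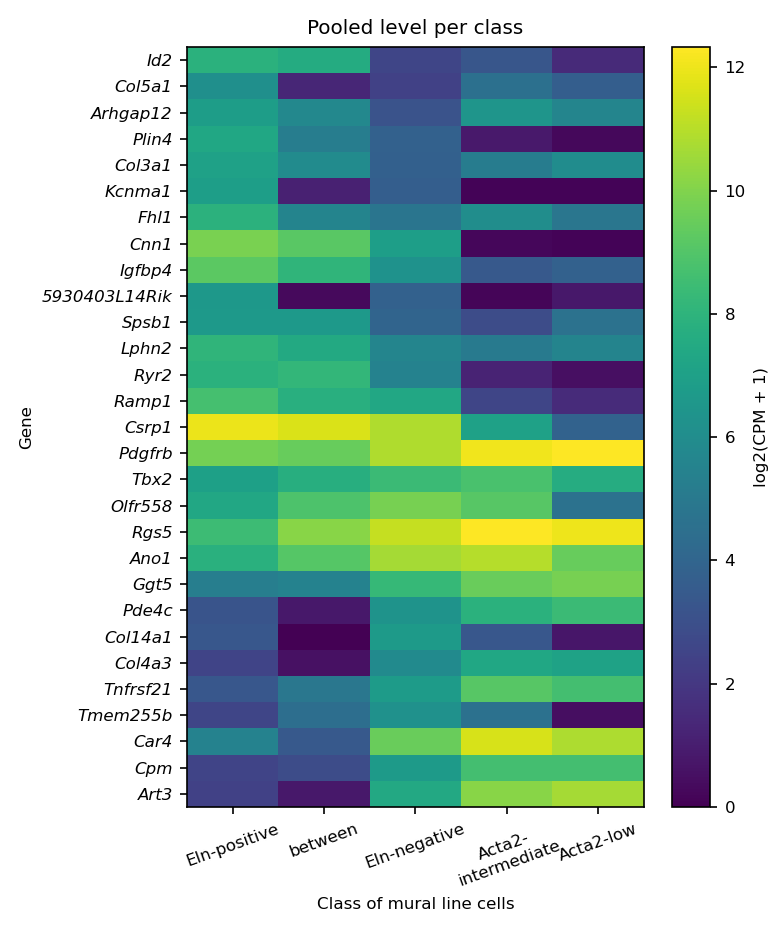
Pooled level as log2(CPM + 1) of the 23 reported genes of the naming rule and 6 list members (rows) in 5 classes of mural line cells (columns): Eln-positive, between, Eln-negative, Acta2-intermediate and Acta2-low. Cnn1, Kcnma1 and Ryr2 are near 0 outside the Acta2-rich cells, Art3, Car4 and Rgs5 are highest in Acta2-intermediate or Acta2-low cells, and Col14a1 and Tmem255b are highest in Eln-negative cells.

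Reads of overlapping genes on opposite strands cannot be told apart here, since the counter and its strand setting are not given in the sources used. This touches Eln (Gm30003), Kcnma1 (4930519K11Rik), Art3 (Cxcl10), Plin4 (Hdgfl2), Tmem255b (Gas6), Spsb1 (Gm13070), Lphn2 (Gm43573), Col4a3 (C430014B12Rik), Olfr558 (Gm45688), Thbs1 (Gm29233), Zfp36 (Gm44710), Sorbs2 (Sorbs2os), Piezo1 (Ctu2), Timp3 (Syn3) and Timp4 (Syn2), and Col5a1, where Gm13372 and 2810430I11Rik overlap. It also touches Lox (AC161119.1), Lamc3 (Gm13441), Lama2 (Gm48084), Nid2 (Rtraf), Notch3 (Gm17276), Foxf2 (Gm27516), Cd9 (Gm26728) and Hspa1a (Gm20481). Col3a1 shares exon sequence with Gm47302 on the same strand. Overlaps were looked up only for the genes of the rule and those named by size or from the lists.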

How the data were processed

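RNA was measured in single cells by Smart-seq2. The deposited table holds counts, whole numbers of reads per gene and cell, for 19937 genes. Per the submitters' processing notes, reads were aligned with STAR 2.4.2a to mm10; the counter, its annotation and any filters were not given in the sources used here. Counts were used as deposited, all columns were matched to a sample by the labels, and no pair of Acta2-rich cells had identical counts. The authors' normalized table was not used here.

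Sides were set by the rule given above and counts summed per side, scaled by total reads, with a pseudocount of 1 CPM and a minimum of 5 CPM on either side. Genes were named by 2 rules: the 12 largest ratios in each direction, and from each of the 18 gene lists up to 3 members at each end with at least 20 CPM on the higher side; other genes named for context were chosen after their values were seen. Values of some single genes, 1 of them among the 12 lower genes, are not reported here, while counts and lists were used whole. Members and lists were chosen with earlier results of these data known. Listed symbols Ccn1, Ccn2, Ccn3, Sost, Hand2, Vegfd, Ntf5, Cavin1, Cavin2 and Cavin3 were not matched in the table. No doublet caller was run; marker sums are given instead. Thinning to 100000 reads used seed 1. Positions are from GENCODE M21. The code, tested on simulated counts, ran in Python 3.11.15 with numpy 2.4.6, pandas 2.3.3, scipy 1.17.1 and matplotlib 3.10.9. Alternatives changed the scaling, the low-value filter, the pseudocount, the bounds of the rule and the depth, and left out plates or cells with markers of other types.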

Additional observations from a re-analysis of the deposited data

How the results depend on the processing

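Under 21 alternatives the 24 genes named by size stayed at least 2-fold in the same direction, the closest being 1.33 for Lphn2 and -1.26 for Col4a3. Several alternatives could hardly have given another outcome. The genes were chosen as 2-fold on every plate, which nearly fixes the settings that leave out or average plates. The low-value filter changes no ratio, and a Cldn5 bound of 100 CPM kept the same cells. A minimum of 20 CPM gave 644 higher and 1068 lower genes, where fewer genes were tested. Within Acta2 of 20000 to 40000 CPM, a range chosen after seeing the data, 1841 genes were higher, with fewer cells, and the log2 ratio of Col6a1 was -0.25. Without cells with pericyte markers of at least 2000 CPM, also chosen after seeing the data, log2 ratios turned to 0.29 for Adora2a, 0.074 for Apcdd1, 1.69 for Cdh11 and 0.58 for Sgce. Adora2a was then at 5.67 and 4.46 pooled CPM in Eln-positive and Eln-negative cells and Cdh11 at 8.53 and 1.95 CPM, near the minimum of 5 CPM. Cdh2 was close to absent on both sides, at 0.128 and 0.126 CPM, so its log2 ratio of 0.0031 has no direction. The cause was not tested. Of 122 named genes 75 were at least 2-fold, 43 of them under every alternative. Higher genes made up 40.1% of calls, and 50.2% without the cells rich in pericyte markers. With the plate as a replicate block, as the mean of the 4 within-plate log2 ratios and also chosen after seeing the data, 1349 genes were higher and 2372 lower, without a test. Genes read in few cells rest on little depth.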
